A study of Mus musculus with 6 samples.

Results

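The interferon-inducible GTPases are cell-autonomous defence proteins, and 10 of their genes were followed in the mouse melanoma cell line D4M-3A with and without Nfkbiz. The 10 genes were chosen by name as members of the MX, GBP and IRG families, out of 43043 gene names in the tables. Earlier results of these data were known when they were chosen. All 10 were among the 14419 genes with enough reads to be tested. Mx1 and Mx2 represent the MX family. Gbp2, Gbp3 and Gbp7 represent the guanylate-binding proteins (GBP). Irgm1, Irgm2 and Igtp are immunity-related GTPases (IRG) of the GMS type, and Iigp1 and Tgtp1 are IRG proteins of the GKS type.

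All of these proteins bind and hydrolyse GTP, and their genes are induced by interferons. MX proteins act against viruses, whereas GBP and IRG proteins gather on the membranes around intracellular bacteria and parasites and damage them. GKS proteins are the effectors of the IRG system, and the GMS proteins, which carry an altered GTP-binding motif, sit on the membranes of the cell itself and hold the effectors inactive there. Type I interferons act mainly on the interferon-stimulated response element (ISRE), and interferon gamma acts on the gamma-activated site (GAS). Nfkbiz encodes IκBζ, a nuclear cofactor of NF-κB that can raise or lower the expression of its targets.

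RNA was sequenced from 3 control samples (Ctrl) and 3 samples with a knockout of Nfkbiz (Nfkbiz KO), and the study describes the samples of a condition as independent experiments. By its methods, cells of both groups were lentivirally transduced and selected with puromycin, the Ctrl cells with an empty CRISPR-Cas9 construct and the Nfkbiz KO cells with one against Nfkbiz. Whether the knockout cells come from a single clone is not given in the sources used here, so an effect of the knockout and one of the clone or guide cannot be told apart. No treatment with interferon is named for these samples. Nfkbiz itself had 69.1, 75.2 and 63.4 TPM (a read level scaled to transcript length and sequencing depth) in Ctrl and 34.8, 34.7 and 35.1 TPM in Nfkbiz KO cells, with a log2 fold change of -0.98 ± 0.056 (SE). Total RNA reads cannot show how much of this transcript is edited. The study checked the loss of IκBζ in D4M-3A cells at the protein level, by immunoblot.

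Samples held between 32219900 and 44927203 reads on genes. Of the melanocyte markers, Sox10 and Tyr had no read in any sample, and the summed level of the 8 markers was 1.31 to 1.80 TPM in Ctrl cells and 1.27 to 1.98 TPM in Nfkbiz KO, so the data hold hardly any RNA of the pigment lineage. The 12 immune cell markers summed to 0.275 to 0.480 TPM in Ctrl cells and 0.191 to 0.258 TPM in Nfkbiz KO, with Cd3e, Nkg7 and Itgax at 0 reads. The 7 fibroblast and endothelial markers summed to 390 to 446 TPM in Ctrl cells and 293 to 324 TPM in Nfkbiz KO, most of it Col1a1. Of the 5 of these markers tested, Col1a1 and Dcn were lower, with log2 fold changes of -0.58 and -0.79, the endothelial Cdh5 was higher, with 1.34, and 2 did not pass. Over all genes tested, 18.4% were lower and 18.2% higher. The part of these markers in the results was not tested.

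The promoters of 7 of the genes were read from RefSeq (GRCm38.p6). Mx1, Mx2 and Iigp1 had no entry in the promoter table. The bases just upstream of the annotated start are shown because the letters through which interferon is known to act stand there. Each line gives 130 bases, 5′ to 3′ on the strand of the gene, ending at the base before the start. Capitals mark ISRE letters (GAAANNGAA on either strand) and GAS letters (TTCNNNGAA, which reads the same on both strands). For Gbp3, which has more than 1 annotated start, the first is shown.
Gbp2 (chr3:142620533-142620662, plus strand): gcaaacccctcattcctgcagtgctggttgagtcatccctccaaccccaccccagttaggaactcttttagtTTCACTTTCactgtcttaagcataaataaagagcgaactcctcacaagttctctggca
Gbp3 (chr3:142559914-142560043, plus strand): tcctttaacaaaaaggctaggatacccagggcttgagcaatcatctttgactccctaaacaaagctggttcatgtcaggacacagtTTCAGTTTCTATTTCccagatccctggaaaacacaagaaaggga
Gbp7 (chr3:142530206-142530335, plus strand): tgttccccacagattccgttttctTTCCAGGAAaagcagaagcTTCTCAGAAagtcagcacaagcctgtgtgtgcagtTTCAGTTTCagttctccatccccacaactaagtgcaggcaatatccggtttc
Irgm1 (chr11:48871421-48871550, minus strand): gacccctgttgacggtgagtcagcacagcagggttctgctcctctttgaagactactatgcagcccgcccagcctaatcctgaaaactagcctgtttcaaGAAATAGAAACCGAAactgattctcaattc
Irgm2 (chr11:58214847-58214976, plus strand): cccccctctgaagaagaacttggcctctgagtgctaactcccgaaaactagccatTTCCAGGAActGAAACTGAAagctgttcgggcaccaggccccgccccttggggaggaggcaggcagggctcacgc
Igtp (chr11:58199426-58199555, plus strand): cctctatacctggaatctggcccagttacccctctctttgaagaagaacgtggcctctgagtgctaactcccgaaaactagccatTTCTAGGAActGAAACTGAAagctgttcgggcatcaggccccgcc
Tgtp1 (chr11:48992247-48992376, minus strand): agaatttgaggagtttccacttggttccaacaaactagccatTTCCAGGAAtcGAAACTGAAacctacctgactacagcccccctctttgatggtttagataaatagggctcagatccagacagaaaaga

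All 7 promoters held ISRE letters within the 250 bases before and 50 bases after the start, against 8.55% of the 32817 promoter windows of this length in the table. For Gbp3 this holds for the start shown, and the window of its other annotated start held neither ISRE nor GAS letters. GAS letters stood in 4 of the 7, those of Gbp7, Irgm2, Igtp and Tgtp1, against 8.29% of all windows. Both kinds stood together in 1.07% of all windows. In Gbp3 and Irgm1 a pair of overlapping ISRE matches, whose first bases lie 44 and 38 bases upstream of the start in Gbp3 and 30 and 24 bases in Irgm1, formed a single run. In Irgm2, Igtp and Tgtp1 the GAS letters preceded the ISRE letters with 2 bases between them. In Gbp7 the ISRE letters lay 26 bases beyond the nearer GAS letters. An NF-kB motif, which stood in 8.46% of all windows, was found in the promoter window of 1 member, Gbp2, downstream of the start and so outside the bases shown. These matches are letters in a window and say nothing of which factors were bound in these cells.

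**Figure D1:**
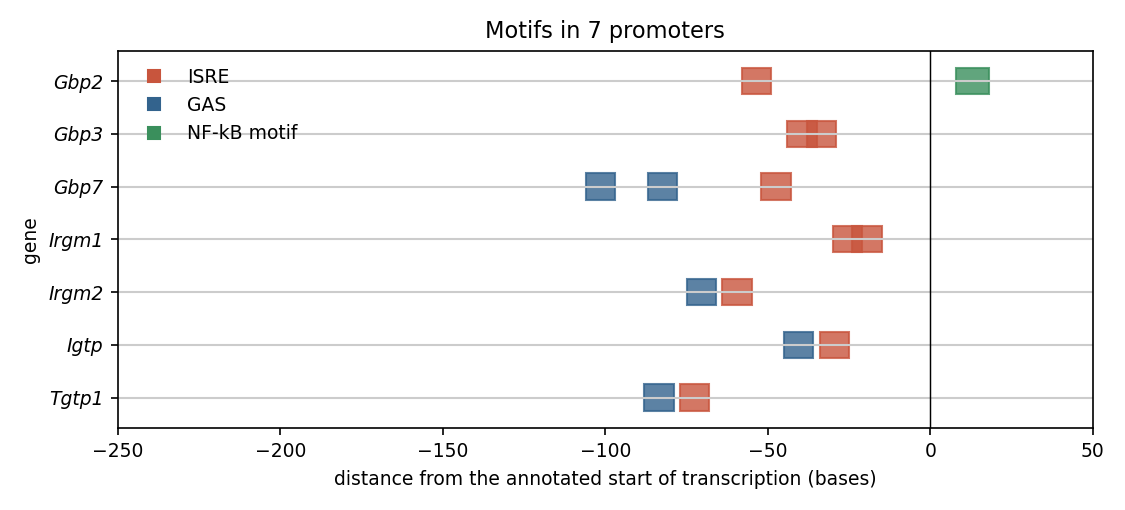
Positions of the motif letters in the promoters of 7 of the genes. The horizontal axis is the distance in bases from the annotated start of transcription (black line), each row is a gene, and boxes mark ISRE (red), GAS (blue) and NF-kB (green) letters. All 7 rows hold a red box upstream of the start, and 4 also hold a blue one.

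All 10 genes were higher in Nfkbiz KO cells. Each passed an adjusted p of 0.05 (edgeR quasi-likelihood test, Benjamini-Hochberg adjustment over all genes tested), which 18.2% of all genes tested did in this direction and 18.4% in the other. Every Nfkbiz KO sample lay above every Ctrl sample for all 10 genes, as it did for 23.9% of all genes tested. As the genes were chosen with earlier results known, these shares are no test of the set. The median log2 fold change of the 10 genes was 0.79, compared to -0.02 over all genes tested. Their levels summed to 1306, 1401 and 1236 TPM in the Ctrl samples and to 2378, 2338 and 2502 TPM in the Nfkbiz KO samples, a ratio of means of 1.83. In bulk RNA, more cells that express these genes and more of their RNA per cell cannot be told apart.

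**Figure D2:**
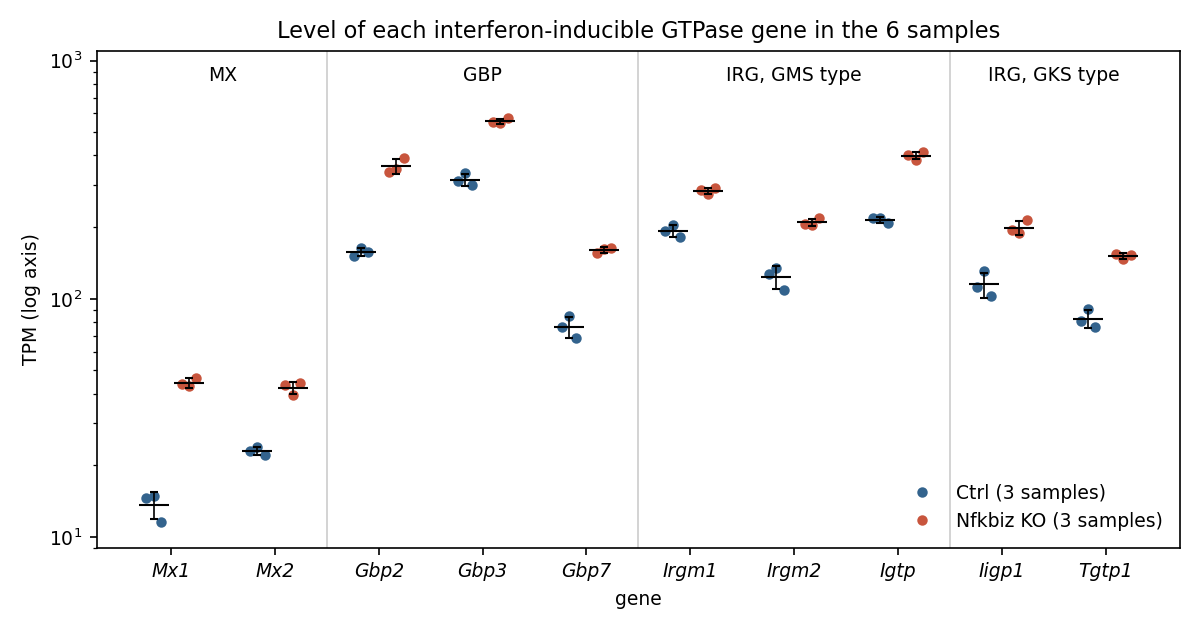
Level of each gene in TPM on a log axis. Points are single samples, 3 Ctrl (blue) and 3 Nfkbiz KO (red), and black bars give the mean and SD. The levels run from 11.6 TPM (Mx1 in Ctrl) to 571 TPM (Gbp3 in Nfkbiz KO), and for every gene the red points lie above the blue ones.

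By the thresholds of the study (more than a 2-fold change, adjusted p not over 0.05 and means more than 4 apart, here taken as TPM), 2 of the 10 genes were called, Mx1 and Gbp2. Of all genes tested, 0.756% were called higher by this rule. When the study's wider rule was used (1.5-fold or more and p not over 0.1, here taken as adjusted p), 9 of the 10 passed. Only Irgm1 did not, and 5.81% of all genes tested passed in this direction. The study applied that rule to cytokine and chemokine genes, in a comparison with an inflammatory gene set. Since the genes moved by a fold change from 1.38 to 3.14, most of them fell between these rules.

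The MX genes held both the largest fold change of the 10 and the lowest levels. Mx1, whose protein acts in the nucleus in mice, had 14.6, 14.8 and 11.6 TPM in the Ctrl samples and 43.7, 42.8 and 46.6 TPM in the knockout samples. The groups were far apart, as the lowest Nfkbiz KO value was 2.89 times the highest Ctrl value. Its log2 fold change was 1.65 ± 0.069 (SE, edgeR adjusted p = 4.4e-09), rank 123 of the 14419 genes tested. Mx2, whose protein acts in the cytoplasm, had 23.0, 23.9 and 22.0 TPM in the Ctrl samples and 43.2, 39.4 and 44.1 TPM in the knockout samples. Its groups were also separate, with a log2 fold change of 0.79 ± 0.059 (SE, edgeR adjusted p = 5.6e-07). In the GRCm39 annotation Mx1 spans 97248235 to 97264107 of chromosome 16 (minus strand) and Mx2, close by, 97336508 to 97362100 (plus strand).

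This annotation classes 2 of the 10 Mx1 transcripts and 2 of the 4 Mx2 transcripts as coding transcripts with loss of function in the reference strain. For Mx1 another 2 are classed as protein coding, and the other 8 genes have no transcript of the loss-of-function class. The reads measure RNA and do not show which protein was made.

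The levels of Mx1 and Mx2 were also compared within each sample. Mx1 was the lower of the pair in every Ctrl sample, with a mean log2 ratio of their TPM of -0.76 ± 0.15 (SD, n = 3), and about level with Mx2 in Nfkbiz KO, at 0.07 ± 0.053. The ranges of the groups did not overlap, and the difference of 0.83 (standard error 0.090) was the largest among 9 gene pairs compared. An exact permutation test gave a two-sided p of 0.1, the smallest that 3 samples against 3 allow, and 0.15 after Benjamini-Hochberg adjustment over the 9 pairs, so no pair could pass.

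The summed level of the GBP genes was 550 ± 31.1 TPM in Ctrl cells and 1077 ± 40.8 TPM in knockout cells (mean ± SD of 3 samples each), a ratio of 1.96. In Nfkbiz KO this was the highest sum of the 4 classes, whereas in Ctrl its range overlapped with that of the GMS genes. Gbp2 had 151, 164 and 157 TPM in the Ctrl samples and 341, 349 and 389 TPM in the knockout samples. The lowest Nfkbiz KO value lay far above the highest Ctrl value, and the log2 fold change was 1.09 ± 0.064 (SE, edgeR adjusted p = 7.7e-08). Gbp3 was the most abundant of the 10 genes in both groups, with 311, 336 and 300 TPM in Ctrl cells and 554, 546 and 571 TPM in Nfkbiz KO. Its log2 fold change was 0.72 ± 0.053 (SE, edgeR adjusted p = 4.8e-07), and the groups lay clearly apart. Gbp7 had 76.0, 84.4 and 68.5 TPM in the Ctrl samples and 155, 161 and 163 TPM in the knockout samples, again without overlap. With a log2 fold change of 0.98 ± 0.059 (SE, edgeR adjusted p = 9.2e-08), a fold of 1.97, Gbp7 stayed just under a fold change of 2 by read counts. On the TPM scale it exceeded 2, with log2 fold changes of 1.06 and 1.07 from limma on log2(TPM + 1) and log2(TPM + 0.1).

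These 3 genes lie in the same region of chromosome 3 of GRCm39, on the plus strand, with Gbp7 from 142236044 to 142255910, Gbp3 from 142265731 to 142278979 and Gbp2 from 142326349 to 142343779. The log2 ratio of Gbp2 to Gbp3 was -1.0 ± 0.064 in Ctrl cells and -0.63 ± 0.074 in knockout cells (mean ± SD of 3 samples each), and that of Gbp3 to Gbp7 was 2.05 ± 0.069 and 1.80 ± 0.041. Both were without overlap but did not pass after adjustment (exact permutation test, p = 0.1, adjusted p = 0.15). The ratios of Gbp2 to Gbp7 overlapped, with a difference of 0.12 (standard error 0.087, exact permutation p = 0.3).

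The GMS genes had the smallest ratio of summed levels among the 4 classes. Their summed level was 530 ± 30.4 TPM in Ctrl cells and 893 ± 28.7 TPM in knockout cells (mean ± SD of 3 samples each), a ratio of 1.68. Irgm1, a regulator of the effector GTPases that is also known from autophagy, had 193, 205 and 181 TPM in the Ctrl samples and 285, 276 and 292 TPM in the knockout samples. This was the smallest change among the 10 genes, with a log2 fold change of 0.46 ± 0.053 (SE, edgeR adjusted p = 2.3e-05), yet its lowest Nfkbiz KO value was still 1.35 times its highest Ctrl value. Irgm2 had 127, 135 and 108 TPM in the Ctrl samples and 206, 204 and 218 TPM in the knockout samples. Its log2 fold change was 0.67 ± 0.062 (SE, edgeR adjusted p = 4e-06), without overlap. Igtp, also called Irgm3, had 218, 217 and 207 TPM in the Ctrl samples and 402, 384 and 411 TPM in the knockout samples. It had the narrowest relative spread in Ctrl of the 3 and a log2 fold change of 0.80 ± 0.053 (SE, edgeR adjusted p = 2.2e-07).

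Irgm1 spans 48752795 to 48763164 of chromosome 11 in GRCm39 (minus strand). Igtp, from 58089840 to 58098417, and Irgm2, from 58090444 to 58113615, lie on the plus strand of the same chromosome and overlap by 7974 bases, although they share only 162 exon bases, 3.56% of those of Igtp and 4.33% of those of Irgm2. Of their reads, 97.8% and 98.9% mapped uniquely, and with uniquely mapped reads alone their log2 fold changes were 0.80 and 0.67. The log2 ratio of Irgm1 to Igtp differed by -0.34 (standard error 0.033) between Nfkbiz KO and Ctrl and that of Irgm1 to Irgm2 by -0.20 (standard error 0.049). Both were without overlap but did not pass after adjustment (exact permutation test, p = 0.1, adjusted p = 0.15). The ratio of Irgm2 to Igtp overlapped between the groups, with a difference of -0.13 (standard error 0.074, exact permutation p = 0.3).

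The GKS genes summed to 197 ± 21.1 TPM in Ctrl cells and 350 ± 15.8 TPM in knockout cells (mean ± SD of 3 samples each), a ratio of 1.77. Iigp1, also called Irga6, is an effector that coats the vacuole of the parasite Toxoplasma. It had 112, 130 and 103 TPM in the Ctrl samples and 194, 189 and 213 TPM in the knockout samples, and spans 60506680 to 60525706 of chromosome 18 in GRCm39 (plus strand). Its groups were apart, with a log2 fold change of 0.72 ± 0.070 (SE, edgeR adjusted p = 5.5e-06). Tgtp1, also called Irgb6, had 80.6, 90.2 and 76.5 TPM in the Ctrl samples and 154, 146 and 153 TPM in the knockout samples. Its log2 fold change was 0.79 ± 0.054 (SE, edgeR adjusted p = 2.7e-07), again without overlap. The ratio of Iigp1 to Tgtp1 overlapped between the groups, with a difference of -0.08 (standard error 0.052, exact permutation p = 0.3).

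Tgtp1 is the least certain of the 10 genes in its counting. It spans 48876154 to 48884999 of chromosome 11 in GRCm39 (minus strand), and 75.8% of the 150-base words of its main transcript also occur in transcripts of Tgtp2 or Gm12185, 150 bases being the read length. Only 55.3% of its reads mapped uniquely, and with these alone its log2 fold change was 0.80. Tgtp2, its near copy, had a mean of 311 ± 16.9 TPM in Ctrl cells and 476 ± 21.4 TPM in knockout cells (mean ± SD of 3 samples each), with 56.7% unique reads and a log2 fold change of 0.52 ± 0.054 (SE, edgeR adjusted p = 1.1e-05). The summed level of Tgtp1 and Tgtp2 was 394 ± 23.9 TPM in Ctrl cells and 627 ± 25.4 TPM in Nfkbiz KO, a log2 ratio of 0.67. Antisense transcripts are annotated over Mx1, Gbp7, Irgm1, Irgm2 and Tgtp1, and as reads were counted on both strands they cannot be told apart from those of the gene.

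**Figure D3:**
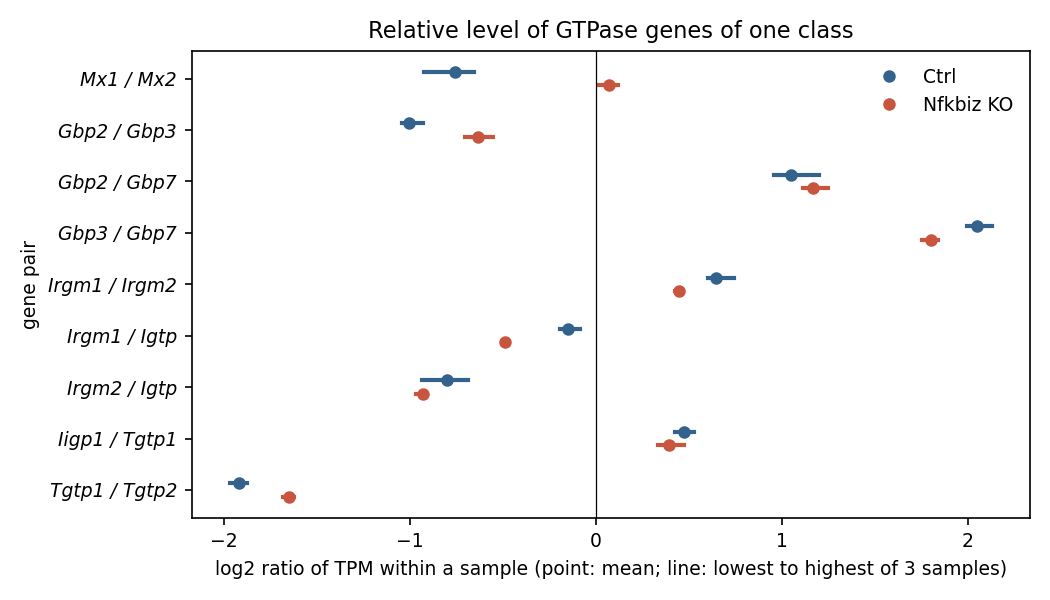
Relative levels of genes of one class. The horizontal axis is the log2 ratio of the TPM of 2 genes within a sample, points are means of 3 Ctrl (blue) or 3 Nfkbiz KO (red) samples, and lines run from the lowest to the highest sample. The ranges are apart in 6 of the 9 pairs, most widely for Mx1 and Mx2.

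In both groups Gbp3 had the highest level and the MX genes the lowest. In Ctrl cells the order by mean TPM was Gbp3, Igtp, Irgm1, Gbp2, Irgm2, Iigp1, Tgtp1, Gbp7, Mx2 and Mx1, in which the ranges of Irgm2 and Iigp1 and those of Tgtp1 and Gbp7 overlapped. In Nfkbiz KO cells it was Gbp3, Igtp, Gbp2, Irgm1, Irgm2, Iigp1, Gbp7, Tgtp1, Mx1 and Mx2, in which Igtp and Gbp2, Irgm2 and Iigp1, and Mx1 and Mx2 overlapped. Gbp2 thus stood below Irgm1 in Ctrl and above it in Nfkbiz KO. Its share of the summed level of the 10 genes was 12.0% in Ctrl and 14.9% in Nfkbiz KO, whereas that of Irgm1 was 14.7% and 11.8%. Gbp3 made up 24.1% and 23.2%, and Mx1 only 1.04% and 1.84%.

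Within a group, most of the 10 genes followed a shared order of samples in TPM, so that they are not 10 separate observations. Among the Ctrl samples, replicate 2 was the highest for 9 of the genes and replicate 3 the lowest for 9. Among the Nfkbiz KO samples, replicate 3 was the highest for 9 and replicate 2 the lowest for 8. These shifts were small beside the difference between the groups, as the mean of the 10 centred log2 CPM profiles (read counts scaled to depth) lay between -0.48 and -0.39 in Ctrl and between 0.40 and 0.50 in Nfkbiz KO. The order was not counted over all genes, so it cannot be called particular to these 10. Most of the constitutive dynamin-family genes described below shared the order in Ctrl. Among them were Dnm1l (60.8, 67.0 and 52.8 TPM in Ctrl replicates 1, 2 and 3) and Opa1 (25.5, 28.5 and 21.7). Dnm1 (46.8, 45.1 and 41.0), Dnm3 and Mfn2 did not.

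Among all other genes tested, the 5 whose centred log2 CPM was closest to this mean profile over the 6 samples were Grem1, Nt5c3, Ifi206, Rnd1 and Cth, with root mean square differences between 0.0316 and 0.0387. The median over all genes tested was 0.465, and the 10 genes themselves lay between 0.0429 (Mx2) and 0.393 (Mx1). Grem1, which encodes an antagonist of bone morphogenetic proteins, had 449 ± 43.7 TPM in Ctrl cells and 862 ± 21.8 TPM in knockout cells (mean ± SD of 3 samples each). Ifi206, an interferon-inducible gene of the DNA-sensing PYHIN family, had 66.8 ± 4.48 and 137 ± 4.17 TPM. Nt5c3 encodes a nucleotidase and Cth an enzyme of cysteine synthesis.

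The rise extended to every other listed interferon-inducible GTPase that could be tested. This list too was made with earlier results of these data known. Of 23 further GBP, IRG and related genes listed, 18 were tested and all 18 were higher at an adjusted p of 0.05, against 18.2% of all genes tested. Their median log2 fold change was 0.94. Those with the largest changes were Gbp11, Gm5431, Gm4841 and Gbp10, with log2 fold changes of 1.55, 1.51, 1.39 and 1.22. Gbp11 and Gm5431 rested on few reads, 9 to 41 and 10 to 58 per sample, and 49.3% of the reads of Gbp10 were unique. Gm4841 rose from 4.90 ± 0.394 to 13.7 ± 0.157 TPM (SD, n = 3 each), with all its reads unique. Gbp2b had between 0 and 6 reads per sample and was not tested. Irgb10, Gm12250, Gvin3 and Gm4070 had no entry under these names. Only 30.3% of the reads of Gbp6 and 49.5% of those of 9930111J21Rik1 were unique. Tgtp2, Gvin1 and Gvin2 share reads as well, so the 18 genes are not all separate measurements.

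GTPases of the dynamin family that act in membrane traffic and mitochondria without interferon were set beside them. Of 10 such genes tested, 1 was higher, 2 were lower and 7 did not pass, against 18.2% and 18.4% of all genes tested, with a median log2 fold change of 0.06. Atl3, which shapes the endoplasmic reticulum, had a log2 fold change of 0.16, whereas Atl1, also an atlastin, and Mfn1, which fuses mitochondria, had -0.54 and -0.16.

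**Figure D4:**
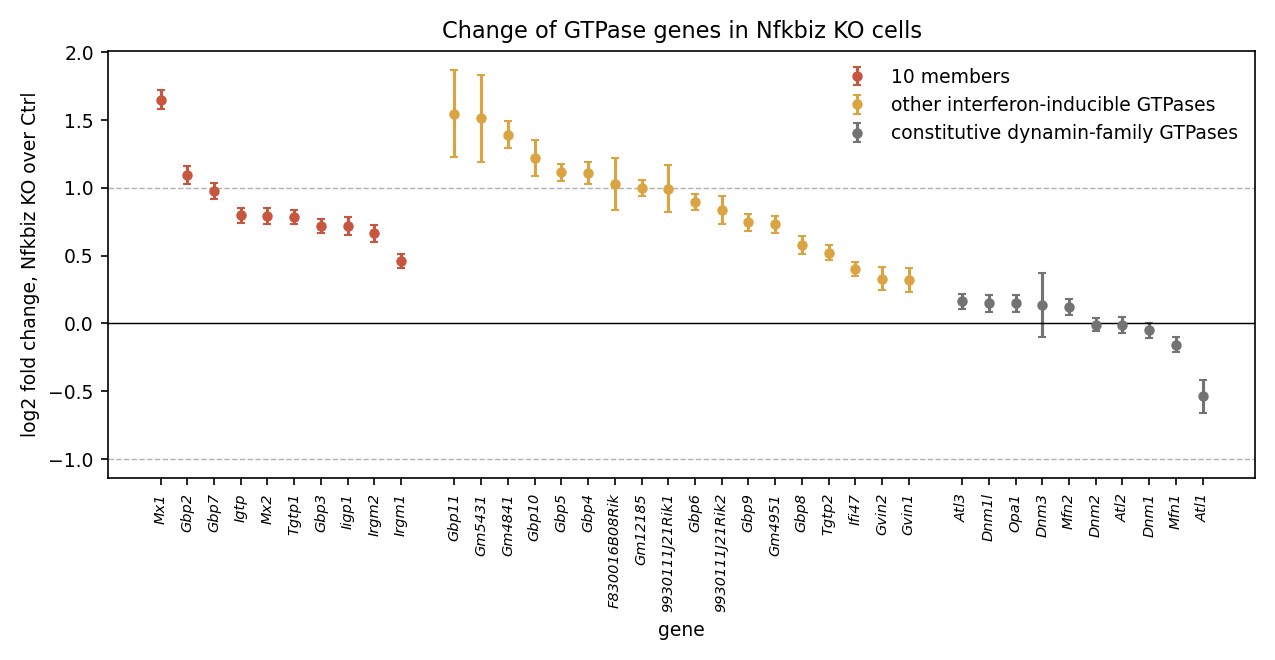
Log2 fold change of Nfkbiz KO over Ctrl, with standard errors, for the 10 genes (red), 18 other interferon-inducible GTPases (yellow) and 10 constitutive dynamin-family GTPases (grey). Dashed lines mark a fold change of 2. The red and yellow points all lie above 0, while the grey points lie between -0.54 and 0.16.

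Genes upstream of the GTPases moved in both directions. Among 18 interferon genes, 14 had no read in any sample, including Ifng and the lambda interferons Ifnl2 and Ifnl3. Ifnb1, the gene of interferon beta, had 1.55, 2.35 and 0.908 TPM in the Ctrl samples and 4.89, 3.72 and 5.17 TPM in the knockout samples, from 14 to 71 reads per sample. All Nfkbiz KO values were above the Ctrl values, with a log2 fold change of 1.76 ± 0.28 (SE, edgeR adjusted p = 4.2e-04). Of the 5 receptor genes tested, 3 were lower, Ifnar2, Il10rb and Ifngr1, with log2 fold changes of -0.25, -0.25 and -0.18, and 2 did not pass. Over all genes tested, 18.4% were lower. Ifnlr1, which encodes the specific receptor chain for lambda interferons, had no reads.

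Of 12 genes that carry the interferon signal, 6 were higher, 1 was lower and 5 did not pass, against 18.2% higher and 18.4% lower of all genes tested. Their median log2 fold change was 0.15. Irf5 rose from 11.1 ± 1.69 to 26.8 ± 0.949 TPM (mean ± SD of 3 samples each), with a log2 fold change of 1.17. Irf7 and Irf1, which encode transcription factors that bind ISRE letters, had log2 fold changes of 0.55 and 0.45. The kinase gene Jak2 had -0.38. Irf9, which encodes a DNA-binding factor of the type I response, had 56.3 ± 1.9 TPM in Ctrl cells and 63.6 ± 1.68 TPM in Nfkbiz KO and did not pass, with a log2 fold change of 0.08 (adjusted p = 0.26 from edgeR).

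Of 6 inhibitors of the pathway, 1 was higher, 1 was lower and 4 did not pass, shares close to those of all genes tested (18.2% and 18.4%). Socs3, which blocks cytokine receptor signaling, fell from 128 ± 1.66 to 65.1 ± 4.33 TPM (mean ± SD of 3 samples each), with a log2 fold change of -1.07. Usp18, an interferon-induced brake on the type I receptor, rose from 313 ± 13.8 to 502 ± 14.9 TPM (log2 fold change 0.59).

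Genes of partners with which GBP and IRG proteins act were also counted. Of the 11 genes of the ATG8 conjugation system, which guides these GTPases to vacuoles, 1 was higher, 2 were lower and 8 did not pass, shares no larger than those of all genes tested (18.2% and 18.4%). The higher one was Gabarapl1 (log2 fold change 0.42), and the lower ones were Map1lc3a (-0.45) and Gabarap (-0.43), and all 3 encode ATG8 proteins. Of 7 inflammasome genes tested, 4 were higher, 2 were lower and 1 did not pass, against 18.2% higher and 18.4% lower of all genes tested. Il18, an inflammasome substrate, had a log2 fold change of 0.89, the sensor gene Nlrp3 0.64, Casp4, whose mouse product is caspase-11, 0.33, and the pore-forming Gsdmd 0.30. Casp1 and the DNA sensor gene Aim2 had -0.28 and -0.25, and Il1b had no reads.

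Near the 10 genes, the share of changed neighbours was about that of all genes tested. Of the 11 closest tested protein-coding genes outside the listed GTPases, 2 were higher, 2 were lower and 7 did not pass, against 18.2% and 18.4% of all genes tested. The higher ones were Bace2 next to Mx1, with a log2 fold change of 1.95 ± 0.46 (SE), and Psme2b between Irgm1 and Tgtp1, a gene closely related to the proteasome activator gene Psme2, with 1.11 (standard error 0.15). The lower ones were Kyat3 beside the GBP genes, with -0.37, and Smim3 beside Iigp1, with -0.19.

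**Figure D5:**
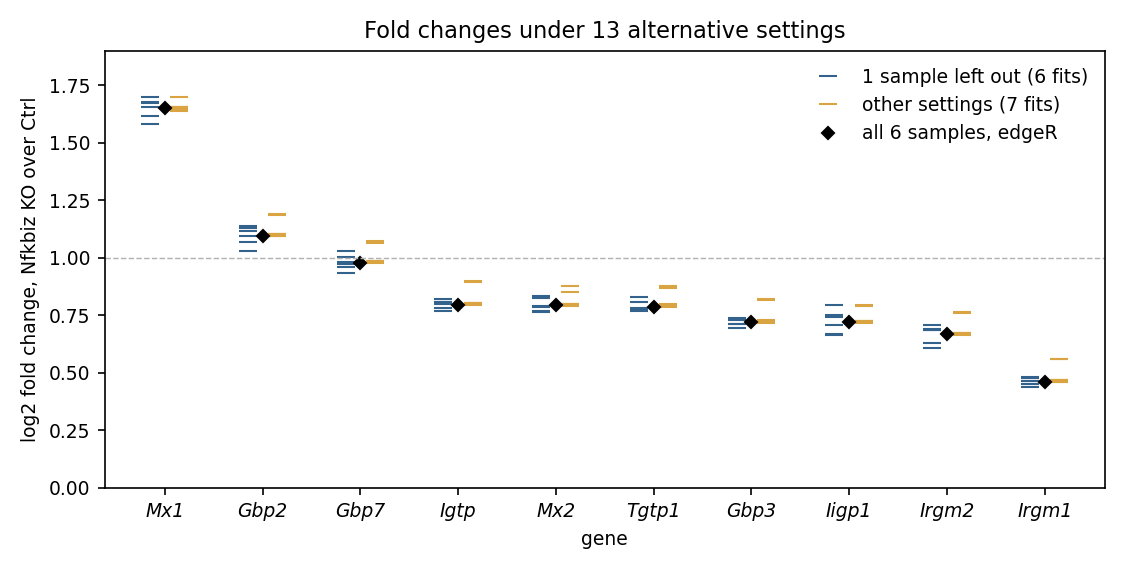
Log2 fold change of each gene with all 6 samples (black diamonds), with 1 sample left out (blue, 6 fits) and under other settings (yellow, 7 fits). The dashed line marks a fold change of 2, which Mx1 and Gbp2 exceed in every fit and Gbp7 in some.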

How the data were processed

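The authors mapped paired reads of 150 bases with CLC Genomics Workbench, counting on both strands. The deposited tables give, per gene, total and uniquely mapped reads as raw counts. The deposited TPM and RPKM are normalized for length and depth on exons, and RPKM was not used. Decimal commas were converted. The build is GRCm39 in the methods and GRCm38 in the processing notes of the submitters, and the tables hold no coordinates. Positions were taken by symbol from an annotation of GRCm39 and promoters from RefSeq tables of GRCm38.p6.

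Total reads were tested with edgeR 4.0.16 in R 4.3.3, using TMM factors, filterByExpr (minimum count 10, minimum total 15), the quasi-likelihood test and Benjamini-Hochberg adjustment over 14419 genes. The standard error is the size of the log2 fold change divided by the square root of F. Overlap and exact two-sided permutation tests used log2 CPM, or log2 TPM ratios for gene pairs. Alternatives used DESeq2 1.42.0, limma 3.58.1, RLE factors, no filter, unique reads, a block for the replicate number and leaving out each sample.

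On simulated counts of this comparison with 14288 genes tested, 200 of 200 changed genes were recovered, with 11 false calls. The changed genes were well counted and had a fold change of 2 or more. A single dispersion was used for all genes and both groups. Smaller changes, which most of the members had, and a spread that differs between the groups were thus not covered. No replicate pair was a duplicate, with chi-square values over degrees of freedom of 28.3 to 72.6 for Ctrl pairs and 3.53 to 6.31 for Nfkbiz KO pairs. The Ctrl samples thus differed more from each other than the Nfkbiz KO samples, while the edgeR test uses a dispersion shared by both groups. The members and gene lists were chosen with earlier results of these data known. Named genes are the members, Nfkbiz, up to 4 genes per list with the largest absolute log2 fold change among those past an adjusted p of 0.05, markers at 0 and the 5 nearest profiles. A gene that this rule names is not reported here. Irf9, Tgtp2, Gbp2b, Gbp6, 9930111J21Rik1, Gvin1, Gvin2, Dnm1, Dnm3, Dnm1l, Opa1, Mfn2, the neighbouring genes and the untested ligands and receptors were named after their values were seen. Positions of motifs are counted from the annotated start, with -1 the base before it.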

Additional observations from a re-analysis of the deposited data

How the results depend on the processing

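All 10 genes remained higher at an adjusted p of 0.05 or less in each of the 13 alternatives run, 130 values in all, and the largest adjusted p was 0.0047 (limma on log2(TPM + 0.1)). When 1 sample at a time was left out, the count of genes past the adjusted p stayed 10, and the count past the thresholds of the study lay between 2 and 3. Of the genes in the other lists, marker and comparison lists included, between 38 and 50 passed the adjusted p, compared to 46. The third gene was Gbp7, called without Ctrl replicate 2 (log2 fold change 1.03), without Nfkbiz KO replicate 1 (1.0) and with limma on log2(TPM + 1) (1.06) and log2(TPM + 0.1) (1.07). The wider rule of the study (1.5-fold or more and p not over 0.1, here taken as adjusted p) called 9 of the 10 genes in place of 2, as the rule itself is wider. Omitting the difference cut-off left 2. The TPM scales moved the median of all genes to 0.06 and 0.08.

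Replicate numbers did not pair the samples, since the deviations of Ctrl and Nfkbiz KO samples numbered 1, 2 and 3 correlated by 0.037, -0.023 and 0.026 over genes. With the replicate block, 10 genes passed the adjusted p, 2 passed the thresholds of the study and 45 listed genes passed. Depth did not limit the 10 genes, which had between 689 and 24135 reads per sample, whereas most interferon genes had none.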

Other observations

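For 2 of the other interferon-inducible GTPases, reads on the gene and the exon-based level differed in scale, and the size of the change depended on the measure. Gbp8 had 1126 to 2404 reads per sample but only 0.728 ± 0.0962 TPM in Ctrl cells and 2.09 ± 0.0964 TPM in knockout cells (mean ± SD of 3 samples each). Its log2 fold change from reads was 0.58, whereas it reached 1.41 in the alternatives that kept all samples. Gm12185, which overlaps Tgtp1 by 6994 bases on the same strand, had 1395 to 3791 reads and 3.73 ± 0.671 and 8.69 ± 0.903 TPM. Its log2 fold change from reads was 1.0, and up to 1.21 in these alternatives. Both were chosen after their values were seen.

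The very large interferon-inducible GTPase genes Gvin1 and Gvin2 were abundant, with 252 ± 49.4 and 228 ± 43.5 TPM in Ctrl cells and 337 ± 14.1 and 308 ± 7.68 TPM in knockout cells (mean ± SD of 3 samples each). Only 9.53% and 9.47% of their reads mapped uniquely, so the values of the pair are not separate measurements. Their log2 fold changes of 0.32 and 0.33 were the smallest of the 18 other GTPases tested.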
